A study of Mus musculus with 8 samples.

Results

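The genes described here are 9 transcription factors and early markers of the primitive endoderm. Gata4, Gata6, Sox17, Sox7 and Hnf4a encode DNA-binding proteins, Pdgfra a receptor, Dab2 an endocytic adaptor, and Sparc and Srgn secreted proteins. They were taken by symbol from a table of 36255 genes. All 9 were in the table, and all 9 passed the filter on low counts that left 16542 genes for testing.

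The primitive endoderm is the layer of the blastocyst that lines the epiblast and later forms the visceral and parietal endoderm of the yolk sac. In mouse embryos it separates from the epiblast under FGF4 signalling through ERK, with GATA6 and NANOG opposing each other, and PDGFRA, SOX17, GATA4 and SOX7 appear after GATA6. Embryoid bodies, which are aggregates of embryonic stem cells (ES cells) that begin to differentiate, form an outer endoderm layer that uses the same factors. These genes are not exclusive to that lineage. GATA4, GATA6 and SOX17 also act in definitive endoderm and its neighbours, PDGFRA and SPARC are made by fibroblasts, and SRGN is made by blood cells.

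Poly(A)-selected RNA of mouse cells was sequenced in 8 libraries, 2 in each of 4 groups. The groups were embryoid bodies at day 2 (EBd2) labelled Skp1a KO, EBd2 labelled Skp1a fl/fl, ES cells labelled Skp1a KO and ES cells labelled Skp1a fl/fl, all grown in standard ES or EB medium. SKP1 joins F-box proteins to CUL1 in SCF ubiquitin ligases, KO stands for its knockout, and fl/fl cells carry the floxed gene. The series compares expression with and without Skp1, in ES cells and in embryoid bodies. Libraries carry the lot numbers 1, 2 and 12. The sources used here do not say how the gene was deleted or whether a lot is its own culture or clone, so p values cover only the spread from library to library, and that may be technical.

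Total counts ran from 7858452 to 10055667 in EBd2 and from 21545868 to 23343471 in ES cells. The tissue field of the labels conflicts with the sample titles, and groups follow the titles. Mitochondrial transcripts took up to 3.24% of counts in KO EBd2, up to 2.7% in fl/fl EBd2, up to 2.43% in KO ES cells and up to 1.76% in fl/fl ES cells. Skp1a, the targeted gene, was at 285.8 and 289.6 CPM in KO EBd2 against 401.4 and 389.1 CPM in fl/fl EBd2, and at 368.9 and 361.3 CPM in KO ES cells against 420.2 and 430.3 CPM in fl/fl ES cells. CPM scale the counts of each library to a common size after TMM adjustment. Skp1a was thus lower in each KO group but far from absent (log2 fold change -0.46 ± 0.04 in EBd2 and -0.22 ± 0.03 in ES cells), and counts per gene do not show whether exons were deleted, so KO is used as a label.

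Since GATA and SOX factors are among the 9 genes, the promoters of the others were searched for their motifs. RefSeq windows (GRCm38.p6) of 250 bases before to 50 bases after an annotated start were at hand for 5 of the 9 genes, 8 windows in all. The motifs were AGATAA, which GATA factors bind, and ACAAT, which SOX factors bind, on both strands, and no matches overlapped. The windows shown are the 3 that hold a match and that of Pdgfra, which holds none although Pdgfra had the widest difference between KO and fl/fl EBd2 among the genes with a window. They are chr2:163506607-163506906 (+ strand) for Hnf4a, chr15:6299539-6299838 (+ strand) for Dab2, chr10:62527396-62527695 (- strand) for Srgn and chr5:75152001-75152300 (+ strand) for Pdgfra, each printed 5′ to 3′ on the strand of the gene. Capitals mark the matches, and TTATCT and ATTGT are the motifs read on the other strand.
Hnf4a: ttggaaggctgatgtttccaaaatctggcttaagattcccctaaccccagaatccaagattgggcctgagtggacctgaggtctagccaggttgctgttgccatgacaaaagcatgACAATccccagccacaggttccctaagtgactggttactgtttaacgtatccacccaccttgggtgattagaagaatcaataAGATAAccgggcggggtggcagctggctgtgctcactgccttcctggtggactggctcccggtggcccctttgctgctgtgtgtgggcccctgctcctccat
Dab2: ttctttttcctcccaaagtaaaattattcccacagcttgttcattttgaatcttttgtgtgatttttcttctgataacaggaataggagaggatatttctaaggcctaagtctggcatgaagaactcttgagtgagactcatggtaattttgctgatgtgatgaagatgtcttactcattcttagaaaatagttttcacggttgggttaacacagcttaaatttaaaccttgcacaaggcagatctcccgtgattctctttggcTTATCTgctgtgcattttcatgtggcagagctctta
Srgn: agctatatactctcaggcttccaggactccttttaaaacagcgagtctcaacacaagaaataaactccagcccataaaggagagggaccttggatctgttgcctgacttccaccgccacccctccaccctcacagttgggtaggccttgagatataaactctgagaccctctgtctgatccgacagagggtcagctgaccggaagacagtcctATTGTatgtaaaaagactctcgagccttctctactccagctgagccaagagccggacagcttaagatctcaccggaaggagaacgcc
Pdgfra: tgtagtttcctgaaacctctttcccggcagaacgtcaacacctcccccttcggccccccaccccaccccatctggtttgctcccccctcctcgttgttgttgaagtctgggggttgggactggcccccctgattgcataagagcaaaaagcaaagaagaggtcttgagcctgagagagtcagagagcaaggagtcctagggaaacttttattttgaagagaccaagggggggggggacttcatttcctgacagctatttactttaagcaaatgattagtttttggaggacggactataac
AGATAA was found in 2 of the 8 windows (25%), and in 11.2% of the 32851 windows of all genes. ACAAT was found in 2 of the 8 windows (25%), and in 31.0% of all windows. The Hnf4a window holds both. These are matches of letters and not known binding sites, and counts per gene do not show which start was used.

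All 9 genes were higher in KO than in fl/fl embryoid bodies. The rises ran from 1.93-fold for Hnf4a to 12-fold for Sox17, and for each gene both KO libraries lay above both fl/fl libraries. The edgeR quasi-likelihood test, adjusted over all genes, called 9 of 9 higher, where 30.7% of all tested genes were called higher and 31.5% lower. A called rise of at least 2-fold was found for 8 of the 9 and for 14.9% of all tested genes. Both KO libraries lay above both fl/fl libraries for 40.2% of all tested genes. The median log2 fold change was 1.70 over the 9 genes and 0.00 over all tested genes. With scaling by library size only, the median over all genes shifted to 0.23 and the calls over all genes to 7075 higher and 3345 lower, against 5072 and 5217, and the 9 genes were again all called higher. Fold changes are given as log2 values ± standard error, where the error comes from the size of the change and the F statistic of its test, with n = 2 libraries per group. The error may be too small for genes of few counts. For the KO effect of Sox17 it was 0.19 in ES cells and 0.14 in EBd2, where the DESeq2 test gave 0.29 and 0.27. For the Sox17 difference between the KO effects of the 2 stages it was 0.25, where DESeq2 gave 0.40.

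**Figure D1:**
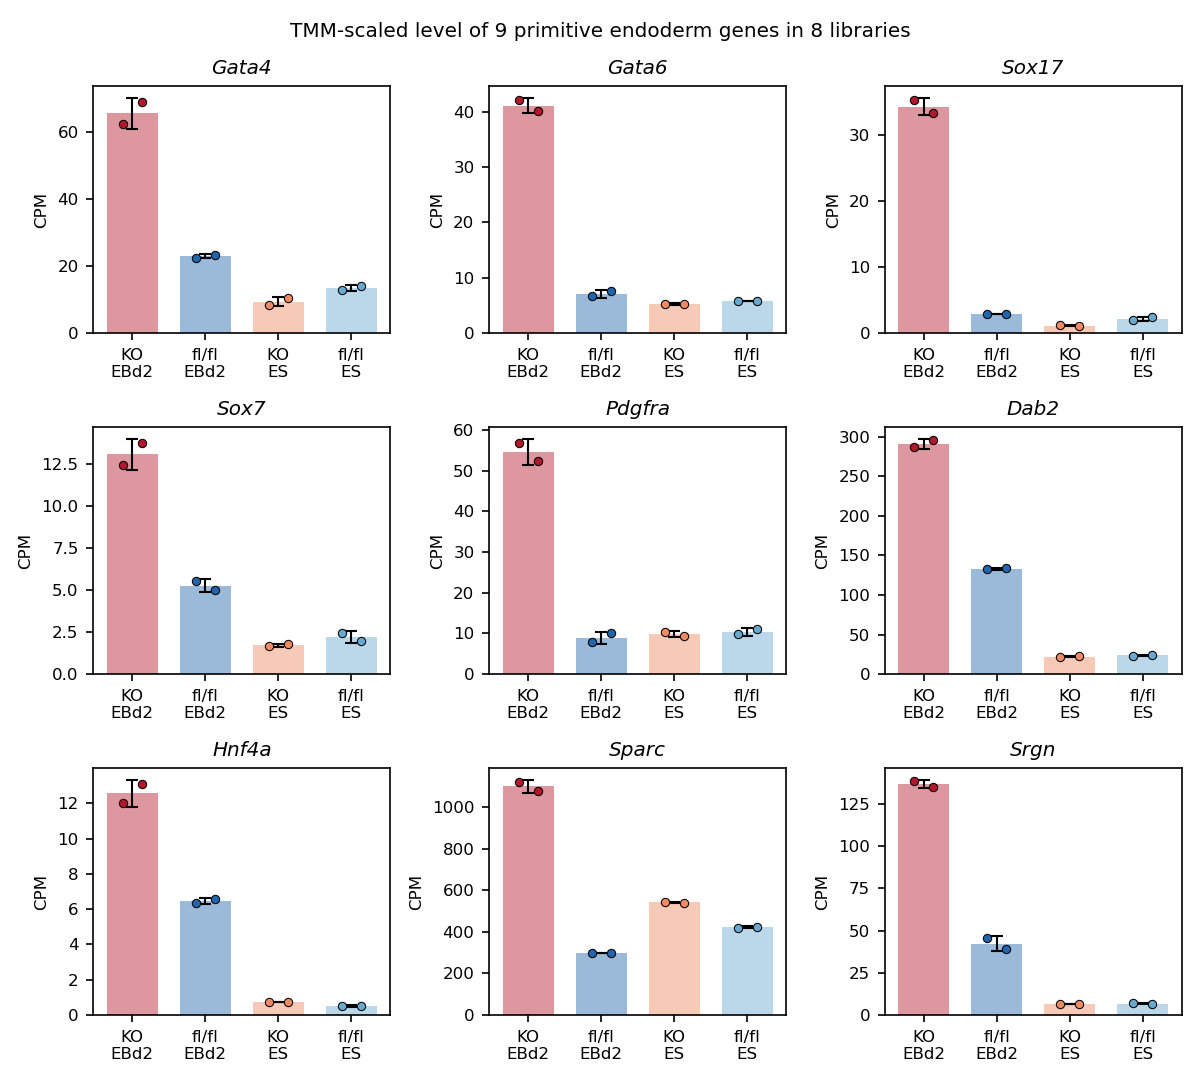
TMM-scaled level in CPM of each gene, with points for the 8 libraries, bars for group means and error bars for the SD (n = 2), on linear axes that start at 0 and differ between panels. Both KO EBd2 libraries stand highest for all 9 genes, and Sparc differs from the rest in its level in ES cells, where it averaged 542.7 CPM in KO and 423.2 CPM in fl/fl.

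GATA6 and GATA4 are zinc finger factors of the primitive endoderm, and both genes rose in KO EBd2. Gata6, on chromosome 18, had 42.1 and 40.1 CPM in KO EBd2, against 6.61 and 7.62 CPM in fl/fl EBd2. It had 5.17 and 5.33 CPM in KO ES cells, against 5.79 and 5.72 CPM in fl/fl ES cells. The KO EBd2 libraries stood far above the other 3 groups, which lay close together between 5.17 and 7.62 CPM but did not overlap. The difference within EBd2 was 5.74-fold (2.52 ± 0.10, edgeR adjusted p = 3.72e-09). Gata4 (chromosome 14, 63198922 to 63271692, - strand, GRCm38) had 62.4 and 69 CPM in KO EBd2, against 22.5 and 23.4 CPM in fl/fl EBd2. It had 8.38 and 10.4 CPM in KO ES cells, against 12.8 and 14.1 CPM in fl/fl ES cells. None of the 4 groups of Gata4 overlapped, with KO the higher genotype in EBd2 and the lower one in ES cells. Its rise in EBd2 was 2.86-fold (1.52 ± 0.10, edgeR adjusted p = 1.66e-07).

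SOX17 and SOX7 belong to one subfamily of SOX factors and act in endoderm. Sox17 (chromosome 1, 4490931 to 4497354, - strand) had 35.3 and 33.4 CPM in KO EBd2, against 2.83 and 2.88 CPM in fl/fl EBd2. It had 1.2 and 1.07 CPM in KO ES cells, against 1.98 and 2.39 CPM in fl/fl ES cells, from 27, 23, 44 and 49 counts. Outside KO EBd2 the gene thus rested on few counts. The difference within EBd2 was 12-fold (3.58 ± 0.14, edgeR adjusted p = 2.89e-09), and 2.82% of all tested genes had a larger absolute fold change there. Sox7 (chromosome 14, 63943673 to 63950732, + strand) had 12.4 and 13.7 CPM in KO EBd2, against 5.53 and 4.96 CPM in fl/fl EBd2. It had 1.65 and 1.76 CPM in KO ES cells, against 2.43 and 1.95 CPM in fl/fl ES cells. Its rise in EBd2 was smaller, at 2.5-fold (1.32 ± 0.17, edgeR adjusted p = 2.94e-05). Sox18, the remaining gene of that subfamily and a factor of endothelium, fell, with 0.588 and 0.358 CPM in KO EBd2 against 1.48 and 1.96 CPM in fl/fl EBd2 (-1.87 ± 0.49, edgeR adjusted p = 0.00624). This fall rested on few counts, 6 and 4 in KO EBd2 against 11 and 17 in fl/fl EBd2.

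HNF4A is a nuclear receptor of the visceral endoderm that drives genes of lipid and protein secretion. Hnf4a (chromosome 2, 163506808 to 163572910, + strand) had 12 and 13.1 CPM in KO EBd2, against 6.34 and 6.58 CPM in fl/fl EBd2. It had 0.758 and 0.742 CPM in KO ES cells, against 0.539 and 0.489 CPM in fl/fl ES cells, from 17, 16, 12 and 10 counts. Its rise in EBd2 was the smallest of the 9 at 1.93-fold (0.95 ± 0.16, edgeR adjusted p = 0.000305).

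PDGFRA, a receptor tyrosine kinase, receives PDGF-A in primitive endoderm cells. Pdgfra (chromosome 5, 75152292 to 75198215, + strand) had 56.9 and 52.3 CPM in KO EBd2, against 7.83 and 10 CPM in fl/fl EBd2. It had 10.3 and 9.36 CPM in KO ES cells, against 9.75 and 11.1 CPM in fl/fl ES cells. As for Gata6, KO EBd2 stood far above the other groups, which overlapped for Pdgfra. The difference within EBd2 was 6.06-fold (2.60 ± 0.12, edgeR adjusted p = 9.62e-09). The ligand gene Pdgfa rose as well, with 65.2 and 59.9 CPM in KO EBd2 against 23.5 and 21.3 CPM in fl/fl EBd2 (1.48 ± 0.08, edgeR adjusted p = 2.47e-08).

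DAB2 is a clathrin adaptor for the endocytic receptors megalin and cubilin, encoded by Lrp2 and Cubn. Dab2 (chromosome 15, 6299788 to 6440712, + strand) had 286.7 and 295.8 CPM in KO EBd2, against 132.4 and 133.8 CPM in fl/fl EBd2. It had 21.7 and 22.2 CPM in KO ES cells, against 23.4 and 24 CPM in fl/fl ES cells. The stages were far apart in both genotypes, and within EBd2 KO was 2.19-fold higher (1.13 ± 0.04, edgeR adjusted p = 8.03e-10). Cubn rose with it, at 551.2 and 531.4 CPM in KO EBd2 against 267.4 and 305.7 CPM in fl/fl EBd2 (0.92 ± 0.06, edgeR adjusted p = 1.06e-07). Lrp2 rose by little, at 548 and 593.9 CPM in KO EBd2 against 460.8 and 526.4 CPM in fl/fl EBd2 (0.21 ± 0.06, edgeR adjusted p = 0.0101).

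SPARC is a collagen-binding matrix glycoprotein abundant in parietal endoderm, and SRGN is the core protein of the proteoglycan serglycin. Sparc (chromosome 11, 55394500 to 55423183, - strand) had 1123.9 and 1080.1 CPM in KO EBd2, against 298.5 and 296.8 CPM in fl/fl EBd2. It had 544.4 and 540.9 CPM in KO ES cells, against 420.6 and 425.7 CPM in fl/fl ES cells. Sparc was lowest in fl/fl EBd2, below every other library, and its difference within EBd2 was 3.7-fold (1.89 ± 0.04, edgeR adjusted p = 2.65e-11). Srgn (chromosome 10, 62493833 to 62527451, - strand) had 138.5 and 135.1 CPM in KO EBd2, against 45.3 and 39.1 CPM in fl/fl EBd2. It had 6.69 and 6.35 CPM in KO ES cells, against 7.05 and 6.5 CPM in fl/fl ES cells. The ES cell groups of Srgn overlapped, and within EBd2 KO was 3.25-fold higher (1.70 ± 0.07, edgeR adjusted p = 2.96e-09).

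Some reads could belong to neighbouring genes, since the sources used here do not give the strand setting of the counting. Exons of Sox17 share 804 bases with Gm37587 on the opposite strand, those of Pdgfra 456 bases with Gm42802 and 166 with Gm42803, and those of Gata6 93 bases with 1010001N08Rik. Without strand, reads of such pairs cannot be told apart.

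Levels of different genes were compared per length, as CPM per kilobase of merged GENCODE vM21 exons. In KO EBd2 Sparc led at 290.9 ± 8.18 CPM per kilobase (SD, n = 2), followed by Srgn at 62.3 ± 1.09, Dab2 at 39.7 ± 0.876 and Gata4 at 16.8 ± 1.2. Sox17 at 7.2 ± 0.282, Gata6 at 6.32 ± 0.217, Pdgfra at 5.45 ± 0.324, Sox7 at 3.96 ± 0.279 and Hnf4a at 2.6 ± 0.161 came next on the same scale. Each of these neighbours in the order was separated by more than its SD. In fl/fl EBd2 the order began with Sparc at 78.6 ± 0.317 CPM per kilobase, Srgn at 19.2 ± 2.0 and Dab2 at 18.1 ± 0.135, of which Srgn and Dab2 lay within the SD of Srgn. Sox17 was the lowest of the 9 in fl/fl EBd2, at 0.598 ± 0.00741 CPM per kilobase. It thus held place 5 of 9 in KO EBd2 and place 9 of 9 in fl/fl EBd2. In ES cells Sparc stood far above the rest, at 143.3 ± 0.653 CPM per kilobase in KO and 111.7 ± 0.952 in fl/fl, and the other 8 genes lay below 4 in both genotypes.

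In ES cells the 9 genes did not rise together. The edgeR test called 1 of 9 higher and 2 lower in KO ES cells, where 10.9% of all tested genes were called higher and 12.8% lower. Their median log2 fold change was -0.11, against 0.00 over all tested genes. Sparc rose (0.36 ± 0.03, edgeR adjusted p = 4.6e-05). Gata4 (-0.52 ± 0.11, edgeR adjusted p = 0.00662) and Sox17 (-0.93 ± 0.19, edgeR adjusted p = 0.00519) fell. Neither fall passed when lot 2 of the fl/fl ES cells was left out, where edgeR gave Gata4 -0.44 (adjusted p = 0.0671) and Sox17 -0.79 (adjusted p = 0.0639). That of Gata4 also did not pass when lot 1 of the KO ES cells was left out (-0.36, edgeR adjusted p = 0.0722). With all libraries thinned to the smallest total, the value of Sox17 was -1.47 (edgeR adjusted p = 0.0115). The 6 genes that did not pass had log2 fold changes of -0.36 ± 0.20 for Sox7, -0.13 ± 0.11 for Gata6, -0.11 ± 0.05 for Dab2, -0.08 ± 0.11 for Pdgfra, -0.06 ± 0.11 for Srgn and 0.54 ± 0.29 for Hnf4a, with edgeR adjusted p between 0.198 and 0.768.

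**Figure D2:**
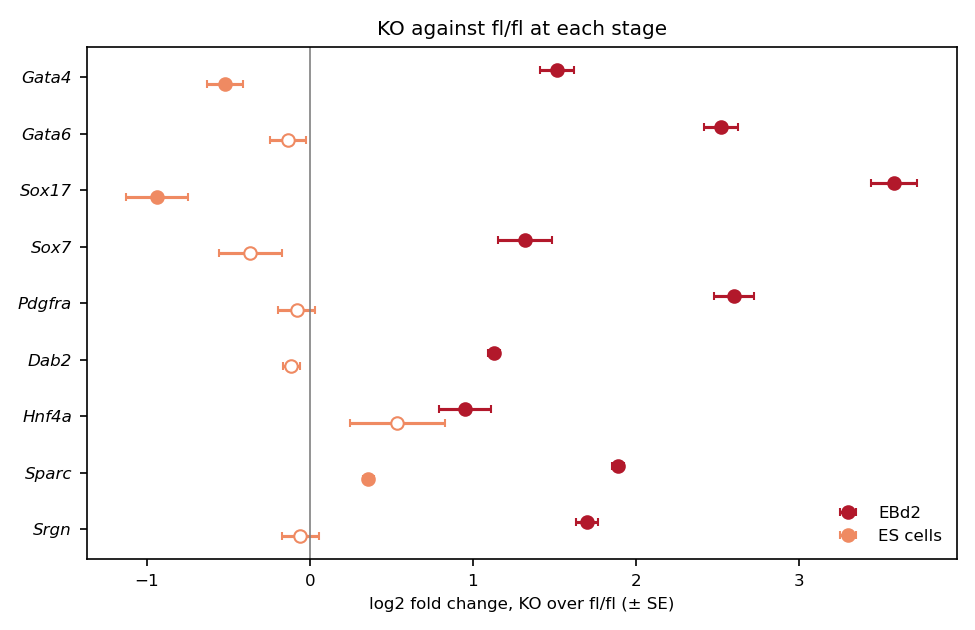
Log2 fold change of KO over fl/fl for each gene in EBd2 (dark red) and in ES cells (orange), with error bars of 1 standard error and open symbols for changes that did not pass the test. The EBd2 values lie between 0.95 and 3.58 and the ES cell values between -0.93 and 0.54.

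Whether the KO effect differed between the stages was tested as the interaction of genotype and stage. It was called positive, with a larger KO effect in EBd2 than in ES cells, for 8 of the 9 genes and for 22.4% of all tested genes, and negative for 0 of the 9 and 25.7% of all tested genes. The value was 4.52 ± 0.25 for Sox17 (edgeR adjusted p = 1.19e-07), 2.68 ± 0.17 for Pdgfra (adjusted p = 3.6e-07) and 2.65 ± 0.15 for Gata6 (adjusted p = 1.79e-07). Those were the genes that stood out in KO EBd2 alone. Gata4 followed at 2.03 ± 0.15, Srgn at 1.76 ± 0.13, Sox7 at 1.69 ± 0.26, Sparc at 1.53 ± 0.05 and Dab2 at 1.24 ± 0.07. The interaction of Hnf4a did not pass (0.42 ± 0.34, edgeR adjusted p = 0.446), and its value was -0.38 with all libraries thinned to one depth.

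Along differentiation all 9 genes were higher in EBd2 than in ES cells in the KO genotype, where 31.7% of all tested genes were called higher. All 9 passed 2-fold, as did 11.6% of all tested genes, and their median log2 fold change was 2.97. In fl/fl cells 5 rose, 1 fell and 3 did not pass, where 28.9% of all tested genes were called higher and 30.1% lower, and the median was 0.78. EBd2 libraries were shallower than ES cell libraries. With all thinned to the smallest total, 9 of the 9 were again called in KO and 6 in fl/fl.

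Dab2, Srgn and Hnf4a rose strongly in both genotypes. The log2 fold change of Dab2 was 3.73 ± 0.04 in KO (edgeR adjusted p = 5.23e-13, the smallest of all genes in that comparison) and 2.49 ± 0.05 in fl/fl (adjusted p = 2.19e-11). That of Srgn was 4.39 ± 0.08 in KO (edgeR adjusted p = 1.16e-11) and 2.63 ± 0.09 in fl/fl (adjusted p = 1.57e-09). That of Hnf4a was 4.05 ± 0.19 in KO (edgeR adjusted p = 1.07e-08) and 3.63 ± 0.23 in fl/fl (adjusted p = 1.27e-07). These 3 genes, an adaptor, a proteoglycan and a nuclear receptor, were thus already raised in fl/fl embryoid bodies. Sox7 and Gata4 rose in fl/fl cells by less. Sox7 changed by 2.93 ± 0.17 in KO (edgeR adjusted p = 4.34e-08) and by 1.25 ± 0.19 in fl/fl (adjusted p = 0.000183). Gata4 changed by 2.81 ± 0.10 in KO (edgeR adjusted p = 1.27e-09) and by 0.78 ± 0.12 in fl/fl (adjusted p = 0.000131).

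Sox17, Gata6 and Pdgfra rose in KO cells and did not pass the test in fl/fl cells, and the interaction values above are the tests of that difference. Sox17 changed by 4.91 ± 0.13 in KO, a 30-fold rise (edgeR adjusted p = 2.12e-10), and by 0.39 ± 0.20 in fl/fl (adjusted p = 0.19). Gata6 changed by 2.97 ± 0.09 in KO (edgeR adjusted p = 4.17e-10) and by 0.31 ± 0.13 in fl/fl (adjusted p = 0.0903). Pdgfra changed by 2.47 ± 0.10 in KO (edgeR adjusted p = 3.38e-09) and by -0.21 ± 0.14 in fl/fl (adjusted p = 0.227). Sparc was the one gene of the 9 called in opposite directions, at 1.02 ± 0.03 in KO (edgeR adjusted p = 6.01e-10) and -0.51 ± 0.04 in fl/fl (adjusted p = 2.57e-07).

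**Figure D3:**
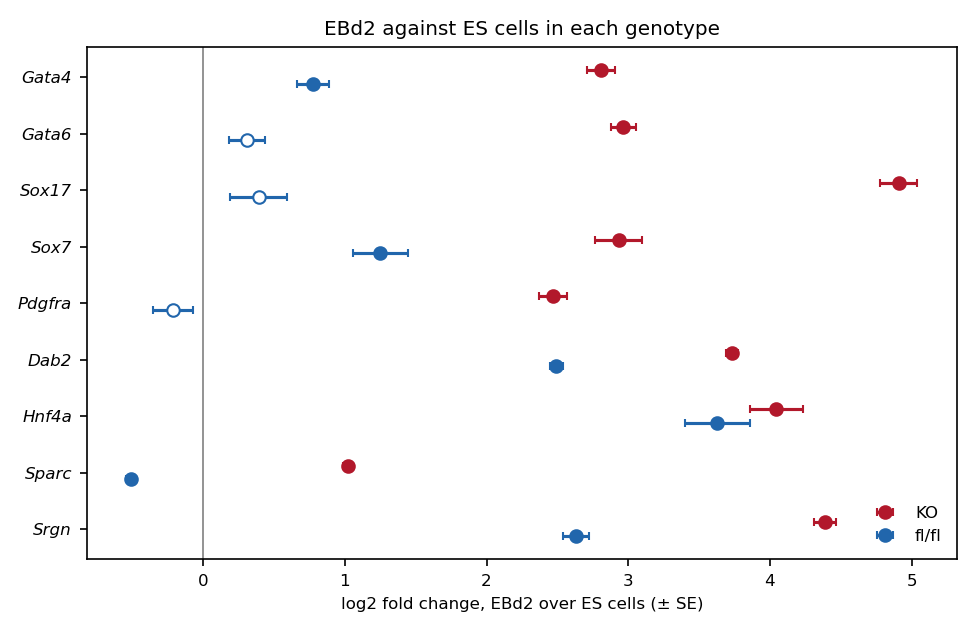
Log2 fold change of EBd2 over ES cells for each gene in KO (red) and fl/fl (blue) cells, with error bars of 1 standard error and open symbols for changes that did not pass the test. The gap between the symbols of a gene is its interaction value, widest for Sox17 (4.52) and narrowest for Hnf4a (0.42).

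Summed over the 9 genes, the level was 1751.4 ± 26.7 CPM (SD, n = 2) in KO EBd2 against 526.6 ± 1.86 CPM in fl/fl EBd2. It was 599.2 ± 1.58 CPM in KO ES cells against 488.2 ± 5.46 CPM in fl/fl ES cells. Sparc made up 62.9% of the sum in KO EBd2, 56.5% in fl/fl EBd2, 90.6% in KO ES cells and 86.7% in fl/fl ES cells. Without Sparc the other 8 summed to 649.4 ± 4.27 CPM in KO EBd2 against 228.9 ± 0.656 CPM in fl/fl EBd2, and to 56.5 ± 0.897 CPM in KO ES cells against 65 ± 1.84 CPM in fl/fl ES cells. In bulk RNA, more cells of a type and more RNA per cell cannot be told apart.

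Correlations of log2 CPM across the 8 libraries, which form only 4 groups and so mostly restate group means, described the same likeness. Dab2 had r = 0.996 with Srgn and 0.991 with Hnf4a, and Gata6 had r = 0.987 with Sox17 and 0.978 with Pdgfra. Sparc was least like Hnf4a (r = 0.372) and most like Pdgfra (r = 0.913). Among 11577 other genes, those closest in pattern were Mttp for Dab2 (r = 0.9971), whose product loads lipid onto apolipoprotein B, and Amot for Hnf4a (r = 0.9998). Col4a2, a chain of collagen IV, was among the 3 closest to Gata6 (r = 0.9957), and the glypican gene Gpc3 among the 3 closest to Pdgfra (r = 0.9956). These values measure shape and not size: Gpc3 averaged 139.1 ± 3.02 CPM (SD, n = 2) in KO EBd2 and 77.7 ± 4.61 CPM in fl/fl EBd2.

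Other genes of the extraembryonic endoderm mostly rose in KO EBd2 too. Of 24 tested, 22 were higher and 1 lower than in fl/fl EBd2, with a median log2 fold change of 1.65. Col4a1, a chain of basement membrane collagen IV, had 1309.1 and 1279.8 CPM in KO EBd2 against 242.5 and 247.7 CPM in fl/fl EBd2 (2.40 ± 0.04, edgeR adjusted p = 1.1e-11). Foxa2, another endoderm factor, rose by 1.67 ± 0.23, the protease gene Plat by 3.06 ± 0.14 and the laminin gene Lamb1 by 1.24 ± 0.04. Nid2, a basement membrane linker, was the gene that fell (-0.15 ± 0.04, edgeR adjusted p = 0.00323), but its value was 0.08 (adjusted p = 0.0817) with library size only, while its paralog Nid1 rose by 1.69 ± 0.06. In ES cells 5 of the 24 were higher and 2 lower in KO.

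Secretory and anterior genes of the visceral endoderm were mixed, with 6 of 13 tested higher and 4 lower in KO EBd2 and a median of 0.28. Ttr and Apob, which encode secreted carriers of thyroid hormone and lipid, rose by 2.08 ± 0.18 and 1.34 ± 0.06, and Dkk1, a Wnt antagonist, by 4.41 ± 0.14. Other secreted carriers fell, Rbp4 for retinol (-2.17, edgeR adjusted p = 0.00123) and Apoa1 for lipid (-1.34, edgeR adjusted p = 0.0139), both from few counts and named after their values were seen. Otx2, a factor of both epiblast and anterior visceral endoderm, had 10.2 and 8.85 CPM in KO EBd2 against 81.5 and 96 CPM in fl/fl EBd2 (-3.23 ± 0.11, edgeR adjusted p = 8.52e-10). Lefty1, a NODAL antagonist, fell by 1.61 ± 0.06 on the log2 scale.

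Of 15 genes of the FGF4 and ERK pathway, 4 were higher and 8 lower in KO EBd2, with a median of -0.29. With library size only, a setting chosen for the lists after seeing the data, 7 were higher and 5 lower, with a median of -0.06. The median over all tested genes moved as well, from 0.00 to 0.23, with 7075 called higher and 3345 lower. The balance of calls in this list thus shifted along with that of all genes. The ligand gene Fgf4 had 123.4 and 119.6 CPM in KO EBd2 against 199.3 and 204 CPM in fl/fl EBd2 (-0.73 ± 0.04, edgeR adjusted p = 2.44e-08). The receptor gene Fgfr2 had 17.9 and 15.6 CPM in KO EBd2 against 30 and 26.7 CPM in fl/fl EBd2 (-0.76 ± 0.10, edgeR adjusted p = 6.45e-05). Among transcriptional targets of the pathway, Etv5 fell (-0.71 ± 0.04) and Etv4 rose (1.06 ± 0.06). In ES cells 1 of the 15 was higher and 6 were lower in KO, Fgf4 among them (-0.38 ± 0.03, edgeR adjusted p = 2.03e-05).

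Of 10 epiblast and pluripotency genes, 5 were higher and 3 lower in KO EBd2, with a median of 0.36. Nanog, which opposes GATA6, had 391.9 and 354.9 CPM in KO EBd2 against 225.3 and 214.9 CPM in fl/fl EBd2 (0.76 ± 0.05, edgeR adjusted p = 1.69e-07). Nanog was thus higher in the same libraries as Gata6. On the log2 scale Klf4 and Tbx3 were higher than in fl/fl EBd2 by 1.70 ± 0.09 and 2.31 ± 0.05. Sox2 and Esrrb were lower by 0.60 ± 0.04 and 0.68 ± 0.05. From ES cells to EBd2, Klf4 fell from 155.8 to 12.7 CPM in fl/fl and from 109.4 to 41 CPM in KO. Nanog fell from 507.3 to 220.1 CPM in fl/fl and from 537.6 to 373.4 CPM in KO. Along differentiation 8 of the 10 genes were called lower in each genotype. Of all 16542 tested genes, 4986 were called lower in fl/fl and 5473 in KO. In ES cells 0 of these genes were higher and 6 were lower in KO. Of 16 paralogs and partners of the 9 genes, 9 were higher and 2 lower in KO EBd2, with a median of 0.98. Gata2, a blood factor, rose by 2.03 ± 0.16 and Gata3, a trophectoderm factor, by 0.92 ± 0.27.

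Markers of some other cell types were also higher in KO EBd2, where 30.7% of all tested genes were called higher and 31.5% lower. Of 10 genes of definitive endoderm and mesendoderm, a lineage that also uses Gata4, Gata6 and Sox17, 7 were higher and 0 lower in KO EBd2, with a median of 1.43. T (brachyury) had 68.2 and 75.9 CPM in KO EBd2 against 0.675 and 1.5 CPM in fl/fl EBd2 (6 ± 0.19, edgeR adjusted p = 5.82e-10). Its fl/fl EBd2 values rested on 5 and 13 counts, so its error may be too small. Eomes had 64.1 and 62.6 CPM in KO EBd2 against 15.9 and 14.2 CPM in fl/fl EBd2. Summed over the list the level was 373.3 to 385.4 CPM in KO EBd2, 137.5 to 142 CPM in fl/fl EBd2, 180.4 to 187.4 CPM in KO ES cells and 180.1 to 181.8 CPM in fl/fl ES cells. No gene of the list was at 0 in any of these groups. The largest parts of the sum in ES cells were Kit and Nodal. Kit averaged 116.1 CPM in KO and 118.3 CPM in fl/fl ES cells, and Nodal 45.8 and 43 CPM. T averaged 0.932 and 0.544 CPM there. In EBd2 Kit averaged 49.8 CPM in KO and 45 CPM in fl/fl. Of 8 mesoderm and cardiac genes, 1 was higher and 0 lower, with a median of 0.22, and the list summed to at most 24.6 CPM in KO EBd2 and 12.5 CPM in fl/fl EBd2. Of 9 trophectoderm genes, 6 were higher and 1 lower, with a median of 2.08. Eomes is shared with the definitive endoderm list, Hand1 with the mesoderm list and Gata3 with the paralogs, so these lists are not separate. Among the trophectoderm genes, Cdx2 had 20.2 and 21 CPM in KO EBd2 against 0.405 and 0.577 CPM in fl/fl EBd2, the latter from 3 and 5 counts. Tfap2c went the other way, with 61 and 55.4 CPM in KO EBd2 against 103 and 98.9 CPM in fl/fl EBd2. The part of these cell types in the rise of the 9 genes was not tested.

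Fibroblast feeder cells, on which ES cells are often grown, make Pdgfra and Sparc. Of 16 tested feeder markers 14 were higher and 0 lower in KO EBd2, with a median of 2.56. Their summed level was 308.7 to 349.9 CPM in KO EBd2 against 69.8 to 75.6 CPM in fl/fl EBd2, and 1000.7 to 1081.8 CPM in KO ES cells against 856.8 to 895.1 CPM in fl/fl ES cells, with none at 0. Col1a1, a collagen I chain, had 65.3 and 57.6 CPM in KO EBd2 against 9.72 and 10.5 CPM in fl/fl EBd2. In ES cells it had 298.2 and 338.5 CPM in KO against 309.1 and 282.9 CPM in fl/fl, which overlapped. Over the list, however, 9 of 16 were higher and 0 lower in KO ES cells, where Sparc was called higher too, with a median of 0.28. Tagln, an actin-binding protein, had 114.6 and 110.5 CPM in KO ES cells against 70.2 and 69.4 CPM in fl/fl ES cells, and Prrx1, a mesenchymal factor, had 32.5 and 34.1 CPM against 23.5 and 23.9 CPM. The part of these cells in the differences between KO and fl/fl, at either stage, was not tested.

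For Srgn, which blood cells make, markers of blood and endothelium are the matching list. Of 10 tested, 6 were higher and 1 lower in KO EBd2, with a median of 1.27. Their sum was 301.1 to 306.3 CPM in KO EBd2 against 171 to 197.3 CPM in fl/fl EBd2, and 258.8 to 261.4 CPM in KO ES cells against 240 to 247.4 CPM in fl/fl ES cells. Laptm5, a lysosomal membrane protein of blood cells, had 72.2 and 71.5 CPM in KO EBd2 against 15.9 and 14.1 CPM in fl/fl EBd2 (2.27 ± 0.07, edgeR adjusted p = 6.08e-10). The macrophage gene Cd68 had 32.3 and 30.4 CPM against 10.8 and 10.7 CPM, and Runx1, a factor of blood formation, 16.8 and 18.3 CPM against 2.56 and 3.35 CPM in the same groups. Both Laptm5 and Cd68 were also present in ES cells. There Laptm5 averaged 77.5 CPM in KO and 65.5 CPM in fl/fl, and Cd68 21.7 and 22.6 CPM. Cdh5, an endothelial cadherin, had 24.8 and 26 CPM in KO EBd2 against 0.54 and 1.27 CPM in fl/fl EBd2, the latter from 4 and 11 counts. Ptprc, the pan-leukocyte marker CD45, had 1 and 2 counts in KO EBd2 against 2 and 1 counts in fl/fl EBd2, and the embryonic globin Hbb-bh1 had 0 counts in every library; both were chosen after their values were seen. The part of blood or endothelial cells in the rise of Srgn was not tested.

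**Figure D4:**
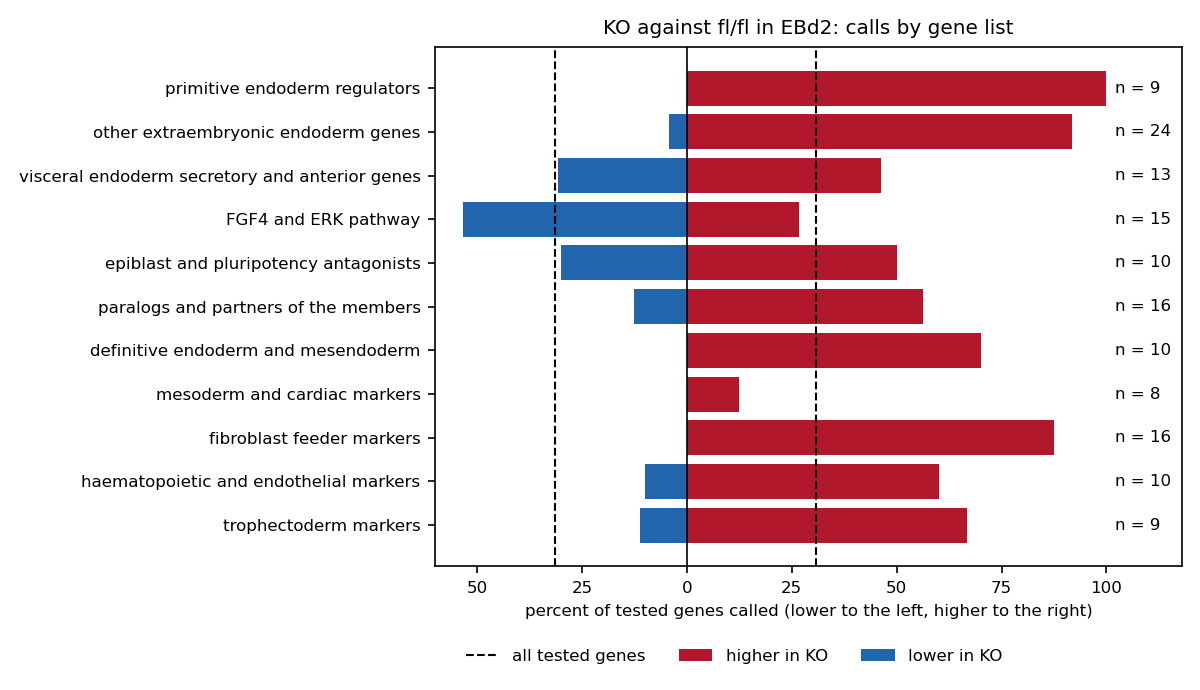
Percent of the tested genes of each list called higher (red, to the right) or lower (blue, to the left) in KO than in fl/fl EBd2, with dashed lines at the shares of all tested genes (30.7% higher and 31.5% lower) and the number of tested genes at the right. The 9 primitive endoderm genes, the other extraembryonic endoderm genes and the fibroblast feeder markers have the highest shares of higher calls, at 100%, 91.7% and 87.5%.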

How the data were processed

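The authors deposited a table of raw read counts per gene symbol, whole numbers with no normalization, for 8 libraries. Trim Galore 0.6.7 and builds GRCm38 and mm10 are named per the submitters' processing notes and the sources used here give no aligner, counting tool, annotation or strand setting. The tests used edgeR 4.0.16 in R 4.3.3. The filterByExpr filter by group left 16542 of 36255 genes, and libraries were scaled by TMM. All 8 libraries entered one fit of 4 group means, and the quasi-likelihood test (two-sided, Benjamini-Hochberg over all tested genes, threshold 0.05) was applied to 5 contrasts. The common biological coefficient of variation was 3.4%. Replicates differed by more than sampling noise (chi-square per degree of freedom 2.12 to 2.81), so none is a copy of another; this does not show that they are separate cultures. The code was tested on simulated counts.

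The 9 genes and the 10 other lists were chosen with earlier results of these data known. Other named genes are up to 3 called genes of smallest p per list and simple contrast, plus Nanog, Fgf4, Fgfr2, Pdgfa, Sox18, Gata3, Foxa2, Otx2, T and Skp1a, and a gene that is not reported here. Ptprc, Hbb-bh1, Rbp4, Apoa1 and Pecam1 fall outside this rule and were named after their values were seen. Pattern likeness is Pearson's r of log2 CPM (prior count 2) among genes reaching 5 CPM in a group. Of the symbols, 34761 (95.9%) are in GENCODE vM21. Alternatives were RLE and library-size scaling, other count filters, DESeq2 1.42.0, a lot block, thinning to 7858452 counts and leaving out each library.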

Additional observations from a re-analysis of the deposited data

Results flagged for a closer look

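For 8 of the 9 genes the KO effect differed between embryoid bodies and ES cells, by the test of the interaction itself (edgeR, adjusted over all genes). The KO effect in EBd2 minus that in ES cells, on the log2 scale, was 4.52 for Sox17, 2.68 for Pdgfra, 2.65 for Gata6, 2.03 for Gata4, 1.76 for Srgn, 1.69 for Sox7, 1.53 for Sparc and 1.24 for Dab2. For Gata4 and Sox17 the 2 effects were called in opposite directions, higher in KO EBd2 and lower in KO ES cells. Both ES cell calls were lost without lot 2 of the fl/fl ES cells. That of Gata4 was also lost without lot 1 of the KO ES cells. Under the other alternatives both calls were kept. Sparc was called higher in KO at both stages.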

How the results depend on the processing

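Of 675 combinations of a gene of the 9, a contrast and an alternative, 666 kept their direction and side of the threshold, 3 kept the direction and lost the call, and 6 changed sign. The number of the 9 genes called was unchanged under every alternative run for the KO effect in EBd2 (9), the stage effect in KO (9) and in fl/fl cells (6) and the interaction (8). For the KO effect in ES cells it was 3, and 1 to 3 when each library was left out in turn. The sign changes were all of values that did not pass. In ES cells Pdgfra ranged from -0.177 to 0.024 when each library was left out, the highest without lot 2 of fl/fl, and was at 0.064 when thinned to one depth. Srgn ranged from -0.105 to 0.005, the highest without lot 1 of fl/fl, and was at 0.014 with library size only and 0.017 when thinned. The interaction of Hnf4a was -0.377 when thinned. Over all genes, 3926 were called in ES cells, 2236 with the replicate block by lot, 2142 when thinned, and 1909 to 3958 when each library was left out, with the lowest numbers for the 4 ES cell libraries (1909 to 2233). For calls by direction in ES cells, library size only gave 2819 higher and 1089 lower, against 1806 and 2120. Thinning removes counts and leaving out a library removes samples; the cause of the other shifts was not tested. Groups compared share lot 1 only, and the deviations of lot 1 libraries correlated between -0.123 and 0.131 across pairs of groups, so the lots were not taken as pairs. The block changed no call among the 9 genes; over all genes the interaction gave 5619 calls with it and 7948 without. Among the other lists, with scalings chosen after seeing the data, library size only turned the balance of calls of the FGF4 and ERK list in EBd2. The median over all tested genes moved there as well, from 0.00 to 0.23. Depth limits Hnf4a and Sox17 most, with at most 17 and 49 counts per ES cell library.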
